A study of Mus musculus with 13 samples.

Results

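Alveolar type 2 epithelial cells were picked out of single-cell RNA counts of mouse lungs by the transcripts they carried. A barcode was taken when Sftpc made up at least 2% of its unique molecular identifiers (UMIs, each standing for 1 captured RNA molecule) and when it held at least 5 UMIs of Sftpb and at least 1 UMI of Lamp3. It also had to lack any UMI of the leukocyte gene Ptprc and the endothelial gene Cdh5, to hold at least 1000 UMIs and to have no more than 10% of them from mitochondrial genes. These conditions left 290 cells out of 37344 barcodes in the series, 24344 barcodes in the 4 libraries numbered 1, 2, 3 and 7, to which the search was limited, and 19604 barcodes there that passed the limits on UMIs and mitochondrial genes (called kept cells below). Since the measured counts chose the cells, every level given here is a description of cells selected on those counts, with no test.

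The series holds 13 lung samples of C57BL/6 mice. Asthma (sensitized to and challenged with ovalbumin), Control (instilled on the same schedule as PPE-emphysema), PPE-emphysema (repeated weekly instillations of porcine pancreatic elastase, PPE, into the trachea) and PPE-recovery (a single PPE instillation followed by a rest) have 1 sample each, and Acute injury (taken days after a first PPE instillation), Con and emphysema have 3 each, which are not analysed here. Each single-cell group was a single mouse, so a difference between libraries could not be separated from a difference between mice or preparations. The barcodes carry a library number from 1 to 7 and no group name, and there are 7 numbers for 4 single-cell samples, so no library could be assigned to a treatment, what libraries 4, 5 and 6 are is not stated, the libraries are reported by number, and the order of their values is not a comparison of treatments.

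Alveolar type 2 cells are cuboidal cells in the corners of the alveoli. They make pulmonary surfactant, the film of phospholipid and protein that lowers surface tension, store it in lamellar bodies and secrete it into the airspace, and they also take it back up. They serve as progenitors of the flat alveolar type 1 cells that carry out gas exchange, and they take part in defense by secreting collectins, lysozyme and other antimicrobial proteins and by displaying antigen on MHC class II molecules. Loss of alveolar walls in emphysema removes the surface that these cells maintain.

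Promoter sequence is shown for 3 genes on which the account turns, namely Sftpb, which helped to choose the cells, Chil1, which nearly every cell carried, and Retnla, which differed widely between libraries. They are read from a RefSeq table on build GRCm38.p6, in which 3 of 4 genes looked up had an entry. Sftpc was the fourth. Each runs 5′ to 3′ on the plus strand over up to 250 bases before the RefSeq start and stops short of the annotated gene. Sftpb lies at chr6:72304360-72304609, Chil1 at chr1:134181906-134182155 and Retnla, which has 192 bases, at chr16:48842359-48842550. Capitals mark matches on either strand to CTCAAG (the core bound by NKX2-1, a transcription factor of lung epithelium), TGTTTAC (FOXA), TTGCNNAA (C/EBP), GGGA and CC with any 4 bases between them (NF-kB) and TTC and GAA with any 4 bases between them (STAT6), where N is any base.
Sftpb: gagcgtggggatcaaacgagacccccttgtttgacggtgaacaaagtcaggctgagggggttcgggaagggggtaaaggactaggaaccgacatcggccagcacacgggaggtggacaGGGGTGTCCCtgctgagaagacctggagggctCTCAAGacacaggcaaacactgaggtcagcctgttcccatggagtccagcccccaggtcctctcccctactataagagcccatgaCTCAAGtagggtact
Chil1: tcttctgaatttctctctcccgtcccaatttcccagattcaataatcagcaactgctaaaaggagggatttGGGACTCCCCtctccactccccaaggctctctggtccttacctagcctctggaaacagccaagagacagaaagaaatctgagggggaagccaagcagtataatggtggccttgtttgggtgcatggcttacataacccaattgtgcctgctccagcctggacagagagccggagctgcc
Retnla: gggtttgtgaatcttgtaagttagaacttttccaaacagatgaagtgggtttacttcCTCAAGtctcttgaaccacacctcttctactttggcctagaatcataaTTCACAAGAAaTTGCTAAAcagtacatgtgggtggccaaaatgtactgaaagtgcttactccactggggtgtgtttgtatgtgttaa
The Sftpb window held CTCAAG beginning 100 and 15 bases before the start and 1 NF-kB match 132 bases before it. The Chil1 window held an NF-kB match 179 bases before the start. In Retnla, CTCAAG began 193 bases, the STAT6 letters 145 bases and the C/EBP letters 134 bases before the start. These distances count from the RefSeq start, which for Retnla lies beyond the end of the 192 bases shown. No match overlapped another. Of 32851 promoters in the table, 13.3% held CTCAAG and 17.6% the NF-kB letters over 250 bases. Over 192 bases, 10.7% held CTCAAG, 4.58% the STAT6 letters and 7.84% the C/EBP letters. Each match is a description of sequence, and binding was not tested.

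Among the 290 cells, 37 came from library 1, 135 from library 2, 96 from library 3 and 22 from library 7. As a share of kept cells, they made up 0.815% in library 1 (exact binomial 95% interval 0.575 to 1.12), 1.86% in library 2 (1.56 to 2.19), 1.97% in library 3 (1.60 to 2.40) and 0.755% in library 7 (0.474 to 1.14). The intervals of libraries 2 and 3 overlapped each other and lay above those of libraries 1 and 7. All intervals here cover counting error only, and the shares are of captured cells, in which capture and abundance in the tissue cannot be told apart. The median cell held 17072 UMIs and 3761 genes, against a median of 8036 UMIs in the other kept cells, and the 290 cells together held 5050312 UMIs. By library, their totals were 698902, 2270105, 1594902 and 486403 UMIs for libraries 1, 2, 3 and 7. Library 7, with the fewest cells and UMIs, gives the least precise values.

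Sftpc took up a median of 18.5% of the UMIs of a cell, from 2.34% to 25.9%, so nearly every cell lay far above the threshold. The medians were 16.2%, 18.7%, 19.5% and 16.4% in libraries 1, 2, 3 and 7. The nearest kept barcode that met every other condition had 0.402% Sftpc, and the 2 members closest to the limit had 2.34% and 2.71%. There were 12 barcodes that failed on Sftpc alone and 4 that failed on Sftpb alone, while none failed on Lamp3 alone. The mitochondrial limit alone removed 55 cells, the nearest of which had 10.05%, next to 9.96% in the nearest member. The condition on Ptprc and Cdh5 removed most, 78 cells of otherwise the same kind, of which 50 held Ptprc and 30 held Cdh5. In 36 of the 78 a single UMI decided it. These 78 cells, with a median of 15.6% Sftpc, stayed among the other kept cells. Levels of type 2 cell genes given for the other kept cells therefore include them. The type 2 cell genes that the conditions did not use were present too: Sftpd, Slc34a2 and Lpcat1 were found in 100% of the 290 cells and Abca3 and Napsa in 99.7%.

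**Figure D1:**
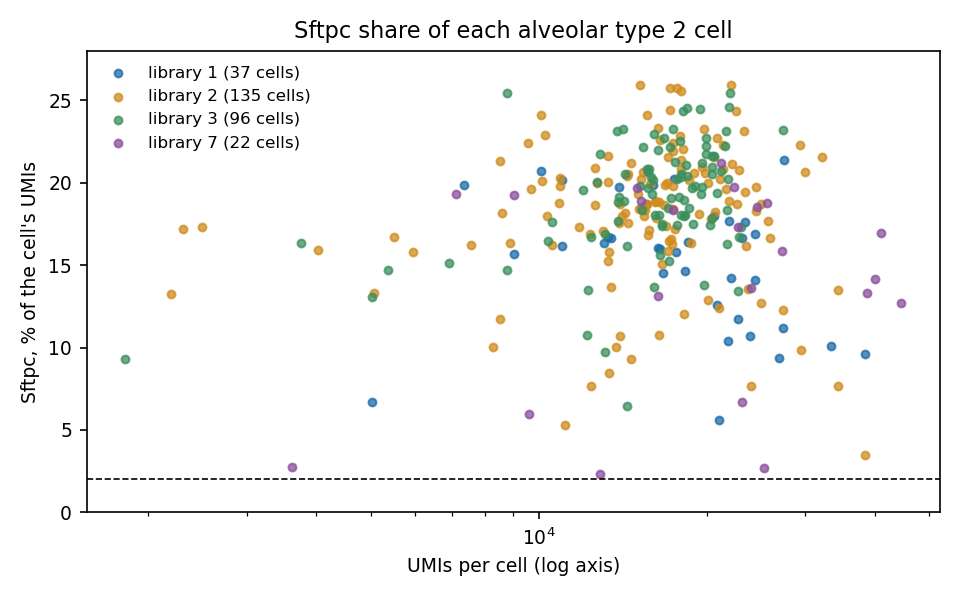
Share of Sftpc among the UMIs of each of the 290 alveolar type 2 cells (vertical axis, %) against the UMIs of the cell (horizontal log axis), colored by library, with the 2% limit as a dashed line. The median is 18.5%, and 3 cells of library 7 lie just above the limit.

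A few members carried transcripts of another cell type or stood apart. Scgb1a1, the secretoglobin of club cells, made up at least 1% of the UMIs in 7 members, 1 in library 2, 5 in library 3 and 1 in library 7, reaching 33.3% in one cell of library 3 and 25.8% in one of library 7. Collagen transcripts (Col1a1, Col1a2 and Col3a1) reached 5 or more UMIs in 4 cells, all in library 2. In library 1, 2 cells held 98 and 135 UMIs of cell division genes. Scrublet, which scores barcodes against simulated doublets, called 3 members, all in library 2. No barcode sequence of a member occurred in another library, although 64 sequences were shared among libraries 1, 2, 3 and 7. Where the counts between libraries rest on the cells rich in Scgb1a1 or collagens or on the dividing cells, they are given below with and without them.

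The 4 surfactant protein genes together made up 220231 of every 1000000 UMIs (counts per 1000000, CPM). The summed level of the lamellar body genes was nearly even between libraries. Sftpc (chr14:70520949-70524081, minus strand, GRCm38) encodes surfactant protein C, which inserts in the phospholipid film. Its summed level was 147745, 180560, 194536 and 145215 CPM in the cells of libraries 1, 2, 3 and 7, with libraries 3 and 2 above libraries 1 and 7. Sftpb encodes surfactant protein B, without which lamellar bodies do not form properly, and stood at 5649, 8421, 9869 and 7971 CPM in the same order, lowest in library 1 and highest in library 3. Sftpa1 and Sftpd encode the collectins SP-A and SP-D, which bind microbes. Sftpa1 measured 30810, 28222, 26480 and 34066 CPM and Sftpd 9312, 5341, 4910 and 9542 CPM, so that both collectins were higher in libraries 1 and 7 than in libraries 2 and 3, the reverse of Sftpc. The widest gap among the 4 was that of Sftpd, 1.94-fold between libraries 7 and 3 (exact conditional binomial interval 1.87 to 2.02). The median ratio of the highest to the lowest library was 1.53 over the 4 genes and 1.43 over all genes of at least 50 CPM.

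Of 10 genes that build, fill or empty lamellar bodies, none reached 2-fold between any of the libraries, next to 12% of all genes of at least 50 CPM. The median ratio of the highest to the lowest library was 1.31 over the list and 1.43 over all genes of that level. The lamellar membrane protein gene Lamp3 measured 1854, 1742, 1786 and 1690 CPM in libraries 1, 2, 3 and 7, and its widest ratio was 1.10 between libraries 1 and 7 (interval 1.005 to 1.20), in a gene that the conditions used. Slc34a2, which carries phosphate out of the alveolar fluid, lay between 6229 CPM in library 7 and 7122 CPM in library 3. The lipid transporter gene Abca3 ranged from 818 CPM in library 7 to 1052 CPM in library 3, and Napsa, a protease that trims surfactant protein B, from 1797 CPM in library 1 to 2492 CPM in library 3. Npc2, a sterol carrier of the lysosome, measured 5284, 5416, 4550 and 6904 CPM, highest in library 7, and the protease gene Ctsh 1418, 1086, 1026 and 1248 CPM. Dram1, a lysosomal membrane gene, lay between 773 CPM in library 7 and 1117 CPM in library 3, and Lgi3, a secreted protein gene, between 491 CPM in library 1 and 656 CPM in library 3. Adgrf5, a receptor that limits the surfactant pool, kept 319 to 357 CPM and was the closest of the 10 to the other kept cells, where it measured 250.1 CPM. Rab27a, which directs secretory vesicles, kept 136 to 158 CPM. Summed over the 10 genes, the level was 19730, 20459, 20292 and 20666 CPM in libraries 1, 2, 3 and 7, a nearly flat series.

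**Figure D2:**
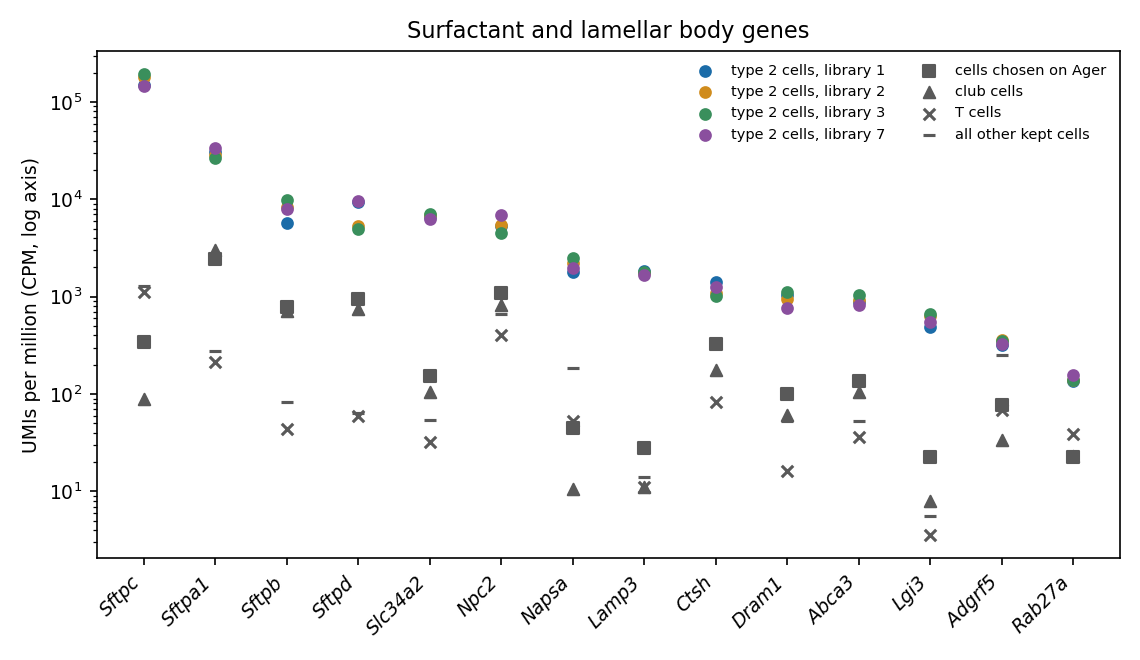
Summed level (CPM, log axis) of 4 surfactant protein genes and 10 lamellar body genes in the alveolar type 2 cells of each library (circles), and in 53 cells chosen on Ager, 93 club cells, 1233 T cells and all other kept cells (gray marks). The 4 circles of a gene lie within 2-fold of each other. For Lamp3 they lie between 1690 and 1854 CPM, against 14.01 CPM in all other kept cells. Those other cells include the 78 that failed only on Ptprc and Cdh5.

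The cells held most of the surfactant RNA of the libraries. Sftpc, Lamp3 and Sftpb were used to choose the cells, so their shares are a description. The cells carried 2.54% of the UMIs of all kept cells but 78.3% of those of Sftpc, 76.7% of Lamp3 and 72.7% of Sftpb. T cells, which do not make Sftpc, served as a gauge of free RNA and doublets, and their level was 1115 CPM. After thinning to 2000 UMIs, 12.5% of the T cells, whose own median was 6240 UMIs, held a UMI of Sftpc. Of 2 secreted genes that the conditions did not use, Chil1 was seen in 97.6% of the thinned type 2 cells and 0.983% of the T cells, and Lcn2 in 81.0% and 0.819%. Cells chosen on Ager and other genes of alveolar type 1 cells carried 341 CPM of Sftpc, but also 402740 CPM of Scgb1a1, so they were not type 1 cells alone and are called by Ager here. Libraries 4, 5 and 6 held no barcode that met the conditions, and their Sftpc UMIs numbered 0, 0 and 2, at a limit of 0.101 CPM for a count of 0 in library 4.

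Ranked by the ratio of their level in these cells to that in all other kept cells, the leading 20 genes of at least 50 CPM held 6 of the surfactant and lamellar body genes and 14 others. The other kept cells include the 78 that failed only on Ptprc and Cdh5, so the ratios are not a contrast with other cell types alone. Prmt8, an arginine methyltransferase best known from neurons, came first, at 61.8 against 0.423 CPM (146-fold, interval 114 to 189). Next came Hc, which encodes complement component C5, at 1818 against 13.0 CPM, and then Sftpc itself at 138-fold. Mlc1, a membrane protein gene of astrocytes, measured 200.2 against 1.54 CPM, and Tinag, a basement membrane protein gene, 72.1 against 0.572 CPM. S100g, a calcium-binding protein gene, measured 1737 CPM, from 901 CPM in library 1 to 1973 CPM in library 3. The least even of the 20 was Bex4, from 142 CPM in library 7 to 358 CPM in library 3. Acoxl, Egfl6, Lgi3, Sgpp2, Sfta2, Irx1, Rbpjl and Rprm also ranked here, besides Lamp3, Slc34a2, Sftpa1, Sftpb and the neutrophil-attracting chemokine gene Cxcl15. Cxcl15 ran from 7477 CPM in library 7 to 10004 CPM in library 1. Of 2389 genes of at least 50 CPM in the type 2 cells, 505 were at least 2-fold and 54 at least 50-fold higher than in the other kept cells. Among genes of at least 50 CPM in the other kept cells, a different set, 1329 were at least 2-fold lower in the type 2 cells.

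Transcription factors of lung epithelium were spread between libraries about as widely as genes in general. Of 14 listed, 11 reached 50 CPM and none differed 2-fold between libraries, next to 12% of all genes. The median ratio of the highest to the lowest library was 1.39 over the list and 1.43 over all genes of at least 50 CPM. Etv5, which maintains type 2 identity downstream of growth factor signals, measured 462, 538, 629 and 432 CPM in libraries 1, 2, 3 and 7. Nkx2-1, the master factor of lung epithelium, measured 499, 402, 384 and 498 CPM, against 8.41 CPM in the other kept cells, with the higher pair in libraries 1 and 7. Cebpa, which drives genes of lipid handling, lay between 180 and 258 CPM, lowest in library 1 and highest in library 3. Sox2, a factor of the airways, stood at 1.39 CPM against 59.3 CPM in club cells, and Sox9, a factor of the lung bud tip, at 1.78 CPM.

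Genes of fatty acid, cholesterol and phospholipid synthesis supply the surfactant film. Of 23 listed, 21 reached 50 CPM and 22 were higher than in the other kept cells. Of the 23, 15 were at least 2-fold higher, next to 505 of all 2389 genes of at least 50 CPM. Between the highest and the lowest library, 5 of the 21 differed at least 2-fold, all with their lowest level in library 7. Over all 2389 genes of at least 50 CPM that share was 12% (286 genes), and 81 of the 286 were lowest in library 7. The median ratio of the highest to the lowest library was 1.43 over all these genes and 1.46 over the list. Scd1, which desaturates fatty acids, was the most abundant at 5217, 8668, 5468 and 7732 CPM in libraries 1, 2, 3 and 7. Fabp5, a fatty acid carrier gene, measured 1917, 1173, 1666 and 777 CPM, lowest in library 7. Insig1, which restrains sterol synthesis, measured 68.7, 114, 216 and 53.5 CPM, and Hmgcs1, an early enzyme of the sterol pathway, 149, 121, 264 and 94.6 CPM, both highest in library 3. Fasn, the fatty acid synthase gene, kept between 869 and 1100 CPM, and Lpcat1, which makes the main surfactant lipid, between 1180 and 1559 CPM.

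Secreted defense and acute phase genes differed widely between libraries. Of 22 listed, 15 reached 50 CPM, and 10 of these 15 differed at least 2-fold between the highest and lowest library, next to 12% of all genes of that level. Of those 10 genes, 5 were highest in library 1 and 3 in library 7, and 7 were lowest in library 3. Among the 286 genes past 2-fold out of all 2389, 80 were highest in library 1, 101 were highest in library 7 and 117 were lowest in library 3, so library 3 was the commonest lowest library in general. The median ratio of highest to lowest was 2.71 over the list. The 10 include Saa3, which rested on 1 cell of library 2, and Lyz1, which most cells lacked. All gene lists here were chosen with earlier results of these data known. The counts set beside 12% of all genes, for this list and the others, are therefore descriptions.

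Lcn2 (chr2:32384633-32388252, minus strand) encodes lipocalin 2, which starves bacteria of iron. It measured 7465 CPM in library 1, 1852 in library 2, 1180 in library 3 and 7081 in library 7, with libraries 1 and 7 well above the others. The ratio was 6.33 between libraries 1 and 3 (interval 5.9999 to 6.67) and 4.03 between libraries 1 and 2 (3.87 to 4.20). Per cell, its median was 47.9 UMIs per 10000 in library 1 (4.60 to 220), 12.1 in library 2 (0 to 149), 7.06 in library 3 (0 to 68.5) and 23.6 in library 7 (0 to 288), so the cells of all libraries overlapped. In library 7 a single cell held 34.3% of the Lcn2 UMIs, and without the top cell of each library the levels were 6754, 1678, 1113 and 4655 CPM. Lcn2 was low elsewhere, at 68.6 CPM in the other kept cells, where it measured 74.6, 39.6, 72.4 and 122 CPM in the 4 libraries.

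Chil1, which encodes a chitin-binding lectin without enzyme activity, was found in 99.3% of the cells. Its level was 6978, 3217, 2701 and 5824 CPM in libraries 1, 2, 3 and 7, in the same order as Lcn2. The median cell had 64.3, 28.7, 24.9 and 31.9 UMIs per 10000. Chia1, which encodes the acidic chitinase that degrades chitin, measured 1392, 177, 357 and 399 CPM, and here library 2 was the lowest. It was detected in 81.1%, 67.4%, 71.9% and 68.2% of the cells. Without the top cell, Chia1 levels became 1155, 165, 330 and 249 CPM, so the last place of library 2 held but library 3 moved above library 7. The log2 ratio of Chia1 between libraries 1 and 3 was 1.96, and 0.75 under a mitochondrial limit of 5%, which left 92 cells.

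Retnla (chr16:48842551-48844461, plus strand) encodes RELM-alpha, a secreted protein that rises in type 2 inflammation, and its levels lay far apart. Its level was 10037 CPM in library 1, 593 in library 2, 102 in library 3 and 2901 in library 7, and the ratio between libraries 1 and 3 was 98.2 (interval 84.1 to 115). On the log2 scale this is 6.62, and it ran from 5.55 with no limit on Ptprc and Cdh5 to 7.07 with no more than 1 UMI of markers of other cell types. Every one of the 37 cells in library 1 held Retnla, from 0.476 to 723 UMIs per 10000 with a median of 33.6. In libraries 2, 3 and 7 the median cell held none, with 112 of 135, 83 of 96 and 12 of 22 cells at 0. The levels outside library 1 rested on few cells, since one cell held 66.0% of the UMIs in library 2, 41.1% in library 3 and 51.2% in library 7. Without the top cell the levels were 8283, 201, 60.2 and 1415 CPM, in the same order. Club cells carried 7244 CPM, and the other kept cells held 1112, 163, 193 and 366 CPM in libraries 1, 2, 3 and 7, with library 1 the highest there too. The T cells held 325 CPM in library 1 and 3.42 CPM in library 3, and how much free RNA added to the low values was not tested.

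**Figure D3:**
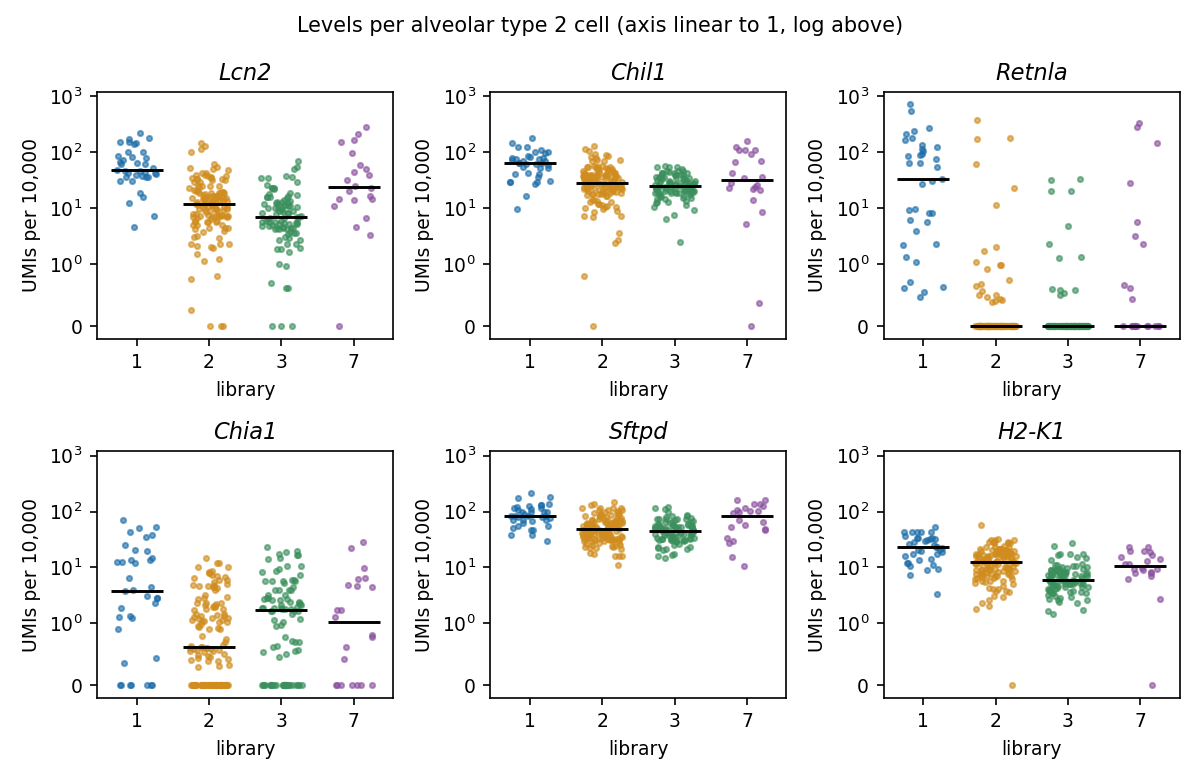
UMIs per 10000 in each alveolar type 2 cell for 6 genes, by library (points, axis linear up to 1 and log above), with the median as a black bar. Retnla is above 0 in every cell of library 1, where the median is 33.6, and the medians are 0 in libraries 2, 3 and 7.

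Further defense genes followed Lcn2 in part. C3, the central complement component, measured 743, 192, 141 and 458 CPM in libraries 1, 2, 3 and 7, and Lrg1, a secreted glycoprotein, 900, 525, 278 and 999 CPM. Without the top cell of each library, Lrg1 measured 808, 476, 245 and 498 CPM, which put library 7 next to library 2. Il33, an alarm cytokine stored in nuclei, measured 577, 363, 258 and 744 CPM, against 7.03 CPM in the other kept cells. For these 3 genes over all cells, libraries 1 and 7 were the higher pair and library 3 the lowest, and for C3 and Il33 this order of the pairs also stood without the top cells. Lyz2, the general lysozyme gene, was the most abundant of the list at 35489 CPM and did not reach 2-fold. Lyz1, the lysozyme gene otherwise typical of the gut, behaved differently: it measured 1053, 1779, 2181 and 806 CPM, yet 26 of 37, 93 of 135, 56 of 96 and 19 of 22 cells held none. In library 7 one cell held 99.5% of its UMIs. Its log2 ratio between libraries 1 and 3 turned from -1.05 to 1.75 with no more than 1 UMI of markers of other cell types, which left 28 cells. Saa3 also rested on one cell, which held 99.9% of its UMIs in library 2.

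Genes for antigen display differed between libraries as a block. Cells of this type carry MHC class II without being leukocytes, and all 6 class II genes at 50 CPM or more (of 7 listed) were highest in library 1 and differed at least 2-fold, next to 12% of all genes, of which 80 of the 286 past 2-fold were highest in library 1. Cd74, the invariant chain, measured 5606, 4156, 2596 and 3491 CPM in libraries 1, 2, 3 and 7, and H2-Aa 1448, 1154, 670 and 859 CPM. Of 16 interferon response and MHC class I genes, 6 reached 50 CPM, and all 6 were at least 2-fold apart and lowest in library 3, next to 12% of all genes, of which 117 of 286 were lowest there. H2-K1, a class I heavy chain, measured 2484, 1338, 737 and 1345 CPM, with a median cell at 22.8, 12.7, 5.93 and 10.6 UMIs per 10000. B2m, its light chain, measured 1311, 554, 274 and 670 CPM. The order 1, 7, 2, 3 for B2m also held in the other kept cells, where B2m measured 3233, 2121, 2003 and 2528 CPM. The spread there was narrower, and so it was for Cd74, at 7290, 4198, 3620 and 4419 CPM. Antiviral genes such as Ifit1 and Isg15 were near 0 in the cells, at 0.198 and 2.97 CPM. T cells, which make no class II, held 17.0% of cells with a UMI of Cd74 at 2000 UMIs each, against 97.2% of the type 2 cells.

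Across all genes, the comparison of each library with each of the other 3 asked for at least 2-fold over all of them with at least 20 UMIs in each library where the gene was high, and 330 of 8219 genes met it in some library. Library 1 was higher in 86 of 4411 genes (1.95%) and lower in 13 of 3076 (0.423%). Library 2 was higher in 114 of 8100 (1.41%) and lower in 1 of 2990 (0.0334%). Library 3 was higher in 32 of 6721 (0.476%) and lower in 24 of 2998 (0.801%). Library 7 was higher in 24 of 3093 (0.776%) and lower in 52 of 4315 (1.21%). Without the 11 cells rich in Scgb1a1 or collagens, a step added after the data were seen, the genes higher in library 2 fell to 15, of which 12 were among the 114. Without the top cell of each gene in each library, also added after the data were seen, library 1 was higher in 38 genes, of which 30 were among the 86, and lower in 10, of which 6 were among the 13. Library 2 was then higher in 93, of which 61 were among the 114, and lower in none. Library 3 was higher in 44 (27 of the 32) and lower in 15 (14 of the 24), and library 7 higher in 5 (5 of the 24) and lower in 85 (29 of the 52). Taking out a cell also brings genes under the minimum of 20 UMIs, so a gene that no longer met the condition need not have lost its fold. Of the genes that no longer met it, 19 of those higher in library 1 and 21 of those lower in library 7 were still past 2-fold with counts under 3 taken as 3. With the same floor, 37 of those higher in library 1, 53 higher in library 2 and 16 higher in library 7 fell under 2-fold.

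Library 1 led in genes of cell division, from the 2 cells named above. Mki67 and Top2a each measured 93.0 CPM there, and Ube2c, Birc5, Cdk1 and Smc2 between 70.1 and 85.8 CPM, while no other library exceeded 5.29 CPM of any of them. Without the members holding at least 5 UMIs of cell division genes, none of the 6 exceeded 3.19 CPM in library 1. This step was also added after the data were seen. The genes higher in library 1 then fell from 86 to 26, of which 23 were among the 86. Those lower in library 7 fell from 52 to 36, of which 34 were among the 52, and those higher in library 2 rose from 114 to 122. One cell held 93.3% of the Ube2c UMIs and between 52.3% and 63.6% of those of the other 5, and without the top cell Ube2c was left with 4 UMIs in library 1. Smc2 then measured 25.8, 4.41, 0.627 and 0 CPM in libraries 1, 2, 3 and 7, still highest in library 1 but on 18 UMIs. The genes lowest in library 1 were Scgb1a1 at 133 CPM, the metallothionein gene Mt2 at 12.9 CPM, S100a6, Cyp2b10, Cald1 and the stress factor gene Atf3 at 25.8 CPM. Scgb1a1 measured 703, 5617 and 2009 CPM in libraries 2, 3 and 7, but one cell held 95.5% of its UMIs in library 7. Without the cells rich in Scgb1a1 or collagens its levels were 133, 467, 901 and 91.1 CPM in libraries 1, 2, 3 and 7, and library 7 was then the lowest. Thinned to 2000 UMIs, 27.0%, 58.5%, 69.5% and 18.2% of the type 2 cells in these libraries held a UMI of it, and 57.1% of all T cells did. The part of free RNA in these shares was not tested. One cell held 90% of the Atf3 UMIs of library 7, and without the top cells Atf3 measured 15.7, 50.7, 61.4 and 12.3 CPM, again lowest in library 7. Without the top cells S100a6 and Cald1 met the condition, and library 1 was still the lowest for Mt2 (8.58, 62.6, 38.9 and 34.95 CPM) and Cyp2b10 (4.29, 19.4, 20.1 and 30.8 CPM), with library 7 under the minimum at 17 and 15 UMIs.

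In library 2 the 6 leading genes were Saa3, the matrix protein gene Mgp, the elastin gene Eln, Cxcl14, Mfap4 and the protease inhibitor gene Timp1. Mgp measured 942 CPM there and no more than 33.2 CPM elsewhere, and without the cells rich in Scgb1a1 or collagens it fell to 67.0 CPM. Without those cells Eln measured 10.3 CPM in library 2 and no more than 2.07 CPM elsewhere, and Saa3, Cxcl14, Mfap4 and Timp1 did not meet the condition. One cell held 88.8% of the Cxcl14 UMIs and one 96.7% of those of Timp1. The only gene at least 2-fold lower in library 2 than in every other was Chia1.

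Library 3 was highest in Pon1, Dbp, Cyp2f2, Tef, Fgfbp1 and the lipase gene Lipg. Cyp2f2, a cytochrome gene of club cells, rested on the cells rich in Scgb1a1. It measured 24.3, 31.7, 114 and 28.8 CPM in libraries 1, 2, 3 and 7. Without the cells rich in Scgb1a1 or collagens it measured 24.3, 23.9, 34.5 and 18.6 CPM, with library 3 under 2-fold of each other library. The other 5 met the condition without those cells and without the top cells. Pon1, a gene for a lipid-protecting esterase, measured 4.29, 19.4, 113 and 14.4 CPM in libraries 1, 2, 3 and 7. Dbp and Tef encode PAR bZIP factors, which are output genes of the circadian clock. Dbp measured 5.72, 5.29, 76.5 and 20.6 CPM and was detected in 55.2% of the cells of library 3 but in 8.11%, 8.15% and 13.6% of those of the others. Its ratio between libraries 3 and 1 was 13.4, with an interval from 5.09 to 49.8 since library 1 had 4 UMIs. The genes lowest in library 3 were Dmkn, Retnla, the low-affinity IgE receptor gene Fcer2a, Tnfrsf9, Ly6i and the anion exchanger gene Slc26a4. Ly6i measured 465, 29.96, 6.90 and 212 CPM and Slc26a4 459, 68.3, 17.6 and 185 CPM, again with libraries 1 and 7 as the higher pair. Without the top cells Ly6i measured 381, 26.4, 5.02 and 111 CPM, and 5 of these 6 genes met the condition. Fcer2a, the other one, then measured 47.2, 7.05, 0 and 51.4 CPM, with library 3 still at 0 and library 2 at 16 UMIs. Pigr, which carries IgA across epithelium and was singled out after its values had been seen, measured 263, 4.85, 5.64 and 144 CPM, and 197, 3.52, 3.13 and 51.4 CPM without the top cells.

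In library 7, the acute phase gene Orm1, the potassium channel gene Kcnk2, Slc16a6, 9530077C05Rik, the cell cycle inhibitor gene Cdkn1a and Rab3c led. Orm1 measured 78.1 CPM, of which one cell held 52.6%, and Cdkn1a 181 CPM against 52.9, 58.6 and 17.6 CPM in libraries 1, 2 and 3. Of the 24 genes higher in library 7, 5 still met the condition without the top cell of each gene, among them Kcnk2, Cdkn1a and Rab3c. Orm1 (8.58, 3.52, 0.627 and 37.0 CPM in libraries 1, 2, 3 and 7), Slc16a6 (10.02, 7.05, 3.76 and 34.95 CPM) and 9530077C05Rik (10.02, 9.25, 1.88 and 26.7 CPM) then were still more than 2-fold higher in library 7, on 18, 17 and 13 UMIs. Those lowest in library 7 were Slc1a3, Maged2, Prep, Klc4, Pitpnm3 and the Wnt receptor gene Fzd5, each resting on 3 or 4 UMIs there, and without the top cells Klc4 (24.3, 21.6, 20.1 and 4.11 CPM) and Pitpnm3 (27.2, 22.5, 18.8 and 2.06 CPM) were still more than 2-fold lower, with library 1 at 17 and 19 UMIs.

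The transitional state, in which type 2 cells turn toward type 1 cells, has marker genes of which 7 of 16 reached 50 CPM, and 4 of these, Sfn, Cdkn1a, Krt7 and Clu, differed 2-fold between libraries, all lowest in library 3. Over all genes 12% differed 2-fold, and 117 of those 286 were lowest in library 3. Clu, a secreted chaperone gene, measured 439, 505, 163 and 975 CPM in libraries 1, 2, 3 and 7, and 376, 377, 149 and 454 CPM without the top cell of each. Krt8, the keratin most used to mark the state, measured 295, 190, 154 and 228 CPM and did not reach 2-fold. Of 14 alveolar type 1 genes, 5 reached 50 CPM, with Ager at 1002, 865, 789 and 1063 CPM and none at 2-fold. Of 15 growth factor and niche receptors, 8 reached 50 CPM and none differed 2-fold. Fgfr2, the receptor for alveolar growth signals, was the most abundant at 223, 297, 411 and 222 CPM. Ligands to neighboring cells likewise had no gene of 4 past 2-fold, and epithelial junction and keratin genes had 1 of 11, which was Krt7.

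Immediate early and heat shock genes, which respond to handling, were lower here than in the other kept cells for all 11 at 50 CPM. Being lower was not particular to these genes, since 1329 genes of at least 50 CPM in the other kept cells were at least 2-fold lower here. The share of all genes at 50 CPM here that were lower was not counted. Between libraries, 7 of the 11 differed 2-fold, next to 12% of all genes. Fos measured 104, 326, 221 and 148 CPM in libraries 1, 2, 3 and 7, lowest in library 1. Fos was also lowest in library 1 in the other kept cells, at 651 CPM, and highest in library 7, at 1367 CPM. Among genes of protein folding in the endoplasmic reticulum, 4 of 9 differed 2-fold (12% of all genes), and 3 of them (Atf4, Dnajb9 and Herpud1) were highest in library 3, as were 67 of the 286 genes past 2-fold. Antioxidant and iron genes had 4 of 13 past 2-fold, also next to 12%, among them Gclc, the rate-limiting enzyme of glutathione synthesis, at 1030, 607, 433 and 1215 CPM.

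Proteases and their inhibitors bear on the breakdown of alveolar walls. Of 15 cathepsin, metalloproteinase and elastase genes, 7 reached 50 CPM, and Ctsc alone differed 2-fold, a share near the 12% of all genes, at 1787, 966, 847 and 1211 CPM. Ctsh, which takes part in processing surfactant proteins, was the most abundant at 1129 CPM, with 313 CPM in the other kept cells. Ctsl, the cathepsin on which the study centered, measured 63.0, 108, 83.4 and 63.7 CPM in the type 2 cells of libraries 1, 2, 3 and 7, against 424 CPM in the other kept cells and 688 CPM in alveolar macrophages. Elane, neutrophil elastase, had 0 UMIs in the cells, which allows up to 0.594 CPM. Of 13 protease inhibitors, 9 reached 50 CPM and 5 of these differed 2-fold, next to 12% of all genes. Wfdc2 was the most abundant and kept between 3538 and 3663 CPM, whereas Slpi measured 217, 115, 77.7 and 232 CPM. Both antitrypsin genes listed, Serpina1a and Serpina1b, were at 0.

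**Figure D4:**
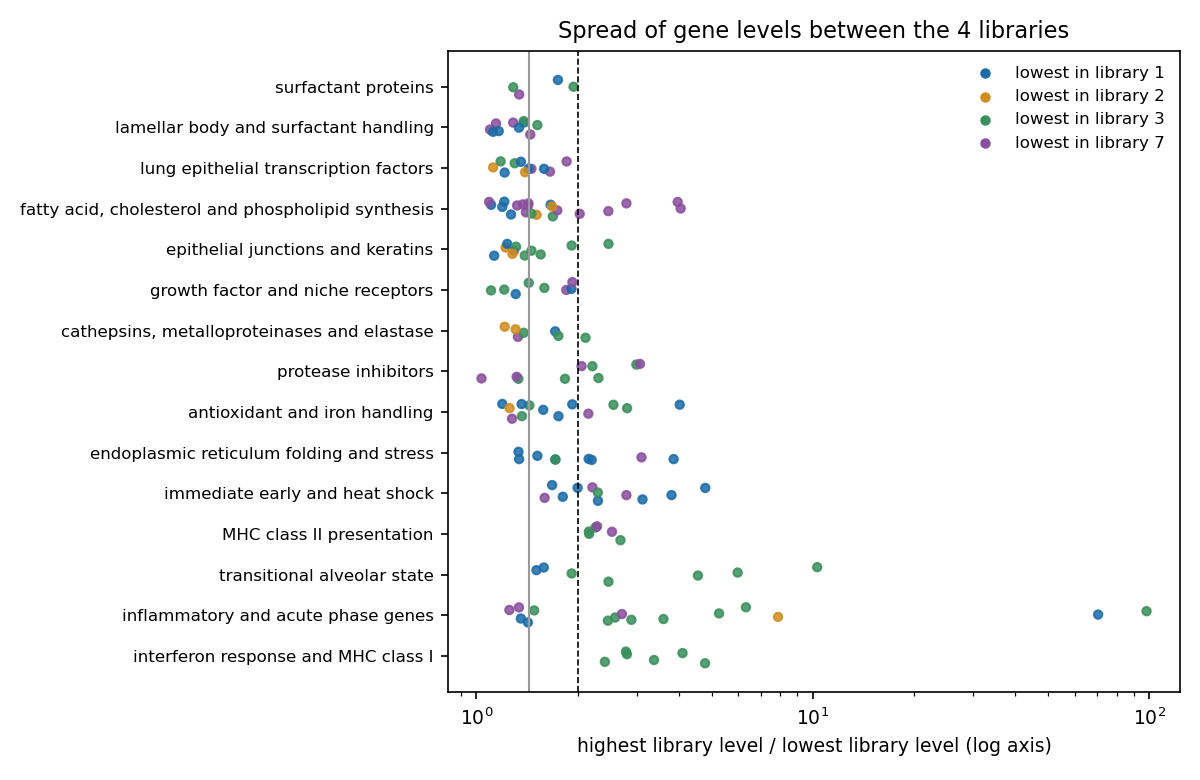
Ratio of the highest to the lowest library level (log axis) for each gene of at least 50 CPM in 15 gene lists, colored by the library with the lowest level, with a floor of 3 UMIs for levels near 0. The dashed line marks 2-fold and the gray line the median of 1.43 over 2389 genes; all 6 genes of the interferon and MHC class I list lie beyond 2-fold and are lowest in library 3.

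How much single cells differed from each other within libraries was read from the ratio of variance to mean after thinning to 2000 UMIs, which is 1 for counting noise alone. Its median over 1107 genes of at least 0.2 UMIs a cell was 1.07, and 48 genes reached 2. Scgb1a1 came first at 397, on the cells named above. Retnla (46.6), Lyz1 (42.0), the nuclear RNA Malat1 (28.9) and Mgp (28.4) followed, and then Sftpc at 20.2, Lyz2 at 16.8, Lcn2 at 9.28 and Scd1 at 8.72. S100a6, Sftpa1, Cxcl15, Gm42418, Chil1 and Gsn completed the first 15, down to 4.22. Sftpa1, which the conditions did not use, ran from 27.7 to 553 UMIs per 10000 in single cells. Sftpc ran up to 2593, its lower end being set by the 2% condition. Across cells of 1 library, which share depth after thinning, Lcn2 and Chil1 ran together, with Spearman coefficients of 0.72 over 37 cells of library 1, 0.45 over 135 of library 2 and 0.57 over 95 of library 3. Retnla and Chil1 had a coefficient of 0.45 in library 1. In libraries 2 and 3 6.67% and 5.26% of the thinned cells held Retnla, too few to read a coefficient. Sftpc and Sftpa1 had coefficients of 0.05, 0.16 and 0.19.

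**Figure D5:**
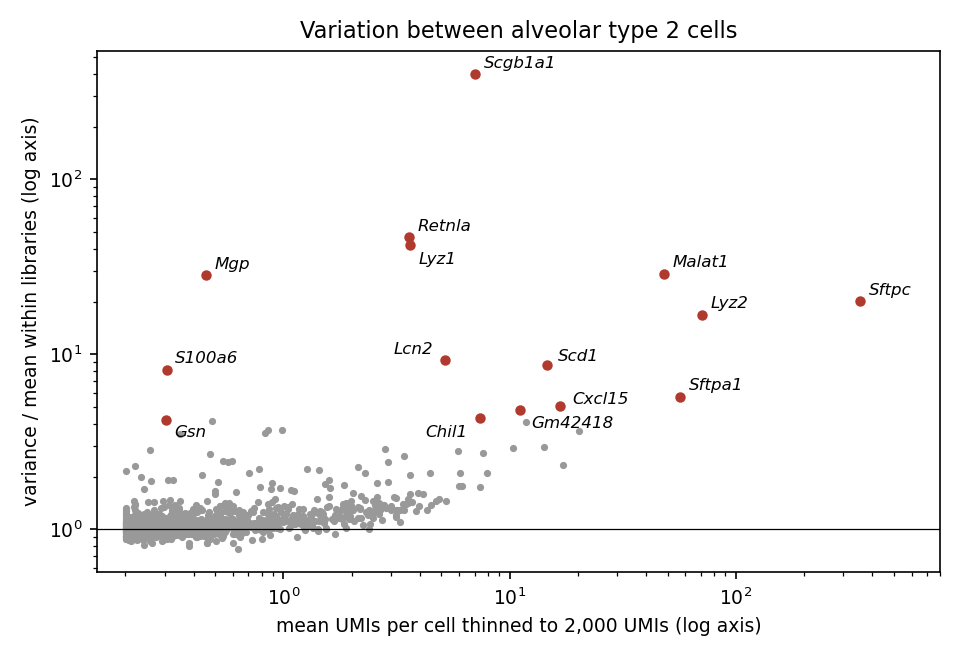
Ratio of variance to mean within libraries (log axis) against the mean UMIs per cell (log axis) for 1107 genes in alveolar type 2 cells thinned to 2000 UMIs, with the first 15 genes named in red. Most genes lie near 1, the median being 1.07, and Scgb1a1 lies highest at 397.

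Markers of other cell types were low in summed level in all 290 cells, with one exception. The cells were chosen to lack Ptprc and Cdh5, and Cdh5 is itself on the endothelial list. Low levels of leukocyte and endothelial markers were thus partly set by the conditions and are no independent check. T cell markers summed to 1.58 CPM, B cell markers to 39.8 CPM, nearly all of it Cd79b at 34.3 CPM, and endothelial markers to 33.7 CPM. Neutrophil markers summed to 19.4 CPM and ciliated cell markers to 71.5 CPM, where Foxj1 was at 0. Fibroblast markers summed to 2.86, 339, 30.1 and 6.17 CPM in libraries 1, 2, 3 and 7, with Inmt the most abundant. The list for alveolar macrophages reached 587 CPM, of which Cd9, a gene of many epithelia as well, made up 501 CPM. The C1q macrophage list was almost all Apoe, at 719 of 724 CPM, and C1qa was at 1.78 CPM. Club cell markers were the exception, at 172, 794, 5804 and 2037 CPM, of which Scgb1a1 made up 133, 703, 5617 and 2009 CPM. Markers of red cells, mesothelium and basal, goblet and neuroendocrine cells summed to 1.78, 0.792 and 0.198 CPM. Xist was present in every library, at 569 to 993 CPM, and the 4 Y-linked genes listed were at 0.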

How the data were processed

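The authors deposited 1 matrix of UMI counts per gene and barcode, made with Cell Ranger 3.1.0 (per the file headers) and STAR, on mm10 per the submitters' processing notes, with reads down-sampled to even out libraries. The labels name version 3 of the Chromium 3′ kit and the supplementary methods version 2. Counts at 3′ ends do not scale with gene length.

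Members and gene lists were chosen with earlier results of these data known. Levels are UMIs summed over cells per 1000000 (CPM) with exact Poisson intervals, and ratios have exact conditional binomial 95% intervals. No test was run, since the matrix counts as 1 sample. Named genes were the surfactant and lamellar lists, the first 20 by ratio to other kept cells (at least 50 CPM), the first 6 high and low genes of each library, the first 15 by variance over mean, and 2 to 4 examples per list. Cells were thinned at random without replacement. Comparison cells were chosen on a few markers: club cells on Scgb1a1 and Cyp2f2, T cells on Cd3e and Ptprc, alveolar macrophages on Chil3, Mrc1 and Ptprc, and another set on Ager with other type 1 genes. Doublets were not removed, apart from the condition on Ptprc and Cdh5. Scrublet in scanpy at an expected rate of 5% was an alternative and called 2.53%, 5.10%, 1.84% and 1.07% of barcodes in libraries 1, 2, 3 and 7. Other alternatives changed thresholds, weights, totals, depth and libraries. Removal of members rich in Scgb1a1 or collagens, of dividing cells and of top cells was added after the data were seen. The software was pandas 2.3.3, scipy 1.17.1, numpy 2.4.6, matplotlib 3.10.9 and scanpy 1.11.5 under Python 3.11.15, and the steps were tested on simulated data. Gene positions are from GENCODE M21 on GRCm38.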

Additional observations from a re-analysis of the deposited data

Results flagged for a closer look

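Outside libraries 1, 2, 3 and 7, Lamp3 was counted in barcodes of libraries 5 and 6, which hold no cell meeting the conditions, at 35 and 30 UMIs among kept barcodes. Both counts are above the limit of 3 UMIs that a count of 0 allows, and this is why they are listed. Sftpb had no UMI in either library and Sftpc had 0 and 2 UMIs. Lamp3 is also known as a marker of mature dendritic cells.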

How the results depend on the processing

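The number of members was 290. It became 28 when no more than 1 UMI of markers of other cell types was allowed, and 92 under a mitochondrial limit of 5%. Leaving out 1 library at a time gave 155 to 268 members. Genes past 2-fold between libraries numbered 330. There were 509 with no limit on Ptprc and Cdh5, 79 with no more than 1 UMI of other markers and 186 with UMIs and genes within 2 SD of the mean. With 1.5-fold there were 1045, with 3-fold 168, with at least 50 UMIs 111, and in cells thinned to 2000 UMIs 44, where fewer genes reach 20 UMIs. With 1 library left out there were 422 to 558. Genes with a variance of at least 2 times the mean numbered 48, 24 at 1000 UMIs and 84 at 4000 UMIs, and the first 15 shared 14 and 15 genes with those at 2000. The log2 ratio of Lyz1 between libraries 1 and 3 turned from -1.05 to 1.75 with no more than 1 UMI of other markers, and the cause was not tested. Of 278 values of 14 such ratios over 20 alternatives, that was the only one that changed sign. On the same log2 scale, the Chia1 ratio ran from 0.75 to 2.32 (1.96 as reported), Lrg1 from 1.31 to 4.25 (1.70) and Scgb1a1 from -7.91 to -0.55 (-5.40). The Retnla level ran from 671 CPM without library 1 to 5960 CPM with no more than 1 UMI of other markers (1967 as reported). Of 437 levels of 19 genes over 23 alternatives, 218 stayed within the counting interval of the reported value. No paired analysis was possible because the libraries carry no group and no result came from a test. Library 7, with 22 cells and the fewest UMIs, gives the least precise counts of the libraries.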

Other observations

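Genes of the circadian clock were listed after Dbp and Tef had been seen to lead in library 3. None of 14 listed reached 50 CPM, and their summed level was 248, 229, 492 and 294 CPM in the type 2 cells of libraries 1, 2, 3 and 7. Nr1d1, a repressor of the clock, measured 10.02, 7.49, 94.1 and 47.3 CPM, and Per3 28.6, 25.99, 68.3 and 28.8 CPM, both highest in library 3. Arntl and Npas2, which activate the clock and peak at the opposite time of day, measured 30.05, 36.1, 14.4 and 24.7 CPM and 21.5, 15.9, 3.14 and 16.4 CPM, both lowest in library 3. In the other kept cells Dbp measured 5.03, 5.75, 38.5 and 6.35 CPM and Nr1d1 4.06, 4.07, 36.1 and 9.24 CPM, again highest in library 3. No hour of sampling was at hand for the mice, and its part in these values was not tested.

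Of 81 ribosomal protein genes of at least 50 CPM, counted after Rps28 and Rps21 had been seen, 45 were lowest in library 1, against 562 of all 2389 genes. For 6 of the 81 the gap between highest and lowest was at least 2-fold, all 6 lowest in library 1, against 286 of 2389 genes, 78 of them lowest there. Rps28 measured 522, 1247, 1165 and 1369 CPM and Rps21 758, 1822, 1589 and 1700 CPM in the type 2 cells of libraries 1, 2, 3 and 7. The other kept cells had 995, 1658, 1592 and 2064 CPM of Rps28. Gm42418, a locus that overlaps ribosomal RNA, was highest in library 7 in both, at 14601 CPM in the type 2 cells and 15311 CPM in the other kept cells.

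In library 7, 3 of 22 members had under 5% Sftpc, as had 1 of 135 in library 2. Of the 3, the first held 25.8% Scgb1a1 among 3611 UMIs, and the others held 12848 and 25330 UMIs with 2.34% and 2.71% Sftpc.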
